A study of Mus musculus with 8 samples.

Results

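The neuronal cytoskeleton and synaptic genes described here are a set of 37 genes that build the microtubules, neurofilaments, growth cones and transmitter release machinery of nerve cells. They were chosen by name, with earlier results of these data known. Each was read by its brightest probe set (highest mean over the 8 arrays) among those annotated to that gene alone. All 37 were measured, out of 18193 genes in all. RNA came from GFP-positive cells sorted from cortex (4 arrays) and from lungs (4 arrays) of mouse embryos at E13.5, homozygous for a Tie2-GFP transgene in both groups. Green fluorescent protein is made in these mice under the promoter of Tek (Tie2), a receptor gene of endothelial cells, so the sort rests on activity of that promoter. Each array held the pooled cells of a litter of 10 to 13 embryos, and the cortex had been freed of meninges and choroid plexus before sorting. Arrays carried the numbers 72, 22, 19 and 18 in both tissues, and array values are given below in that order. The question behind the comparison is what distinguishes vessels of the developing brain from vessels of another organ. The genes treated here are known mainly from neurons, which the sort was not aimed at, and some of them were also bright in lung.

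Developing neurons extend axons and dendrites on bundles of microtubules, which are built from neuron-enriched tubulins, stabilised by proteins such as doublecortin, MAP2 and tau, and kept dynamic by the stathmins. Kinesins carry cargo along them, neurofilaments give the axon calibre, and the growth cone reads guidance cues through adhesion molecules and the collapsin response mediators. Transmitter is released when SNARE proteins fuse synaptic vesicles with the membrane under control of a calcium sensor. Many of these genes are repressed outside the nervous system by the silencing factor REST, and many have close relatives that most cell types use.

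Values were log2 intensities after RMA, with array medians of 6.59 to 6.72, and all differences are cortex minus lung on that scale. The description field of 4 samples names the other tissue, while title, source name and tissue label concur, and the values followed the titles. Neurod6, which encodes a factor of young cortical projection neurons, averaged 11.71 ± 0.18 over the cortex arrays and 3.72 ± 0.49 over the lung arrays, and the progenitor factor Sox2 at 11.33 ± 0.21 and 4.42 ± 0.45 (mean ± SD, n = 4 each). Tek, the gene whose promoter drives the sorted marker, lay at 11.70 ± 0.84 in cortex and 12.93 ± 0.28 in lung. High Tek values follow from the sort and do not measure how pure the sorted cells were. Lung arrays 22 and 18 stood apart from the others at the low end of the scale. The 95th percentile of 71 odorant and pheromone receptor genes, which serve here as a guide to dim values, was 7.25 and 7.82 on those arrays, against 5.64 to 6.51 on the other 6. Lung array 18 also had the largest excess of the 3′ over the 5′ actin control, 0.99 against 0.36 to 0.55 elsewhere. Results are therefore also given without lung arrays 22 and 18 where that changed a call.

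Of the 37 genes, 36 rose in cortex (adjusted p under 0.05, limma with Benjamini-Hochberg adjustment over all genes), 0 fell and 1, Syt1, was not called. Over all genes 10.4% were called higher in cortex. Because the 37 were chosen with earlier results of these data known, the shares over all genes are a description and not a test. The rise was at least 2-fold for 35 of them, where 7.89% of all genes reached that, and at least 16-fold for 18, where 0.989% did. The median difference was 3.89 log2 units, beside -0.09 over all genes, and differences ran from 0.96 for Syt1 to 7.97 for Kif5c. Sizes depended on reading the brightest probe set. With the mean of all probe sets of each gene the median was 2.99, and the largest difference was 7.23, for Tubb3. Cortex arrays lay above all lung arrays for 35 genes, which held for 12.5% of all genes, and the arrays overlapped for Nefl and Syt1. Beside these values, 11 of 11 transcription factors of cortical neurons and 12 of 13 radial glia markers rose in cortex, with list means of 10.18 to 10.72 and 10.39 to 11.09 on cortex arrays against 5.03 to 5.82 and 6.59 to 6.88 on lung arrays. Of 27 pan-endothelial markers 6 fell in cortex (7.71% of all genes fell) and 0 rose, with means of 9.49 to 11.36 on cortex arrays and 11.25 to 11.77 on lung arrays. How many cells each transcript came from and how much RNA each cell held cannot be told apart in such pooled RNA. Without lung arrays 22 and 18 the number of genes that rose was 32.

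**Figure D1:**
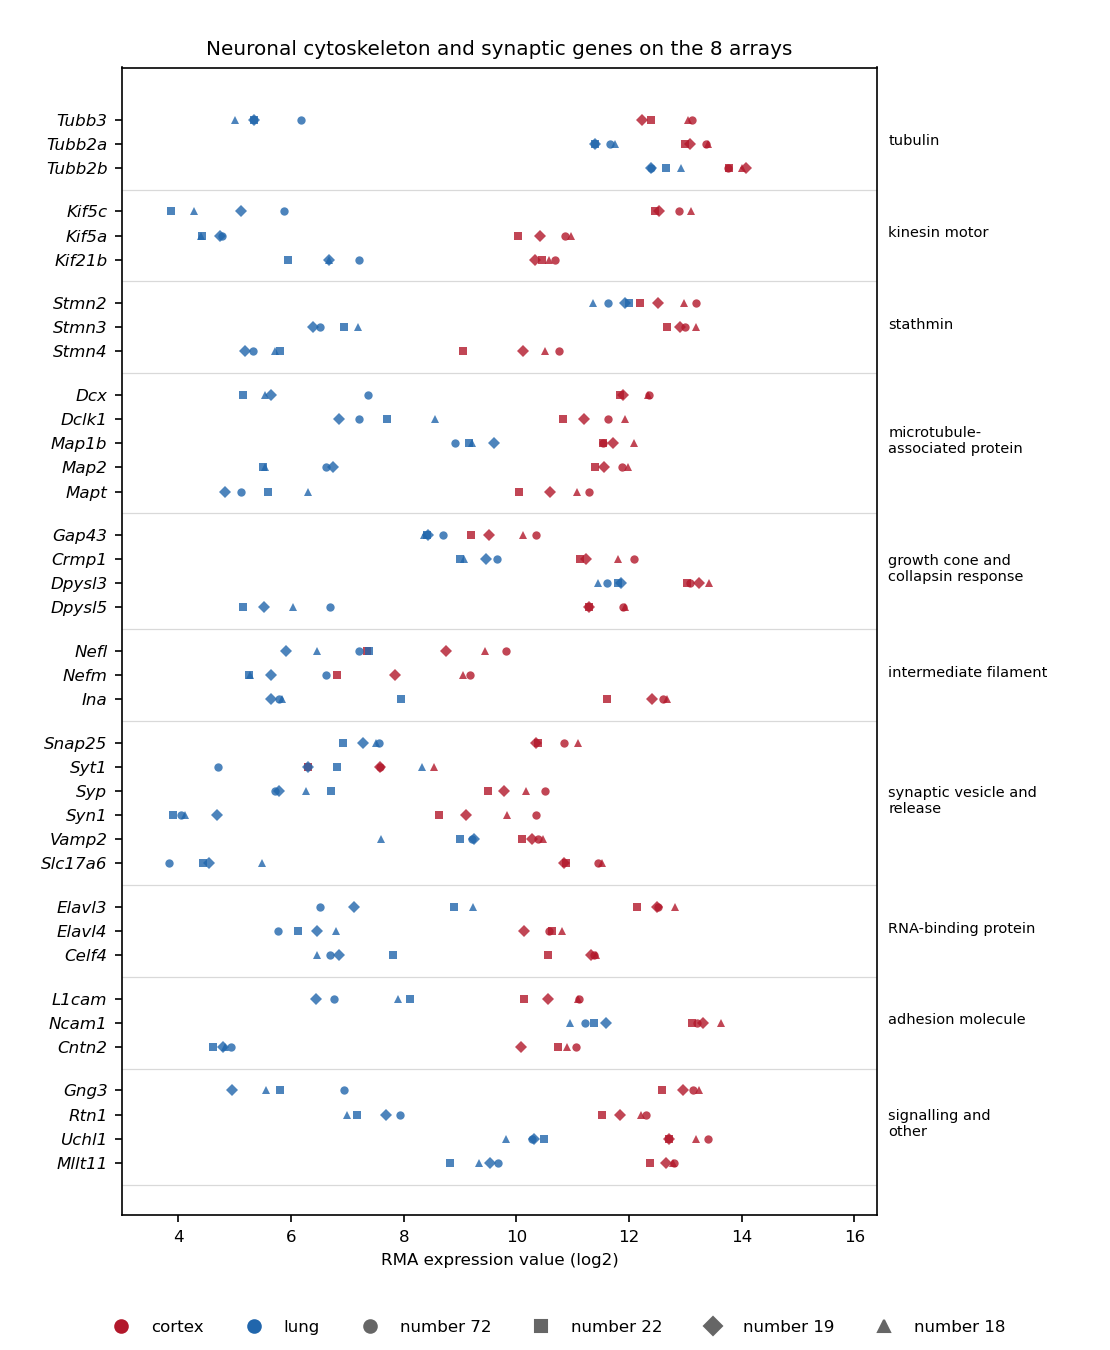
RMA expression value (log2, horizontal axis) of the 37 genes on the 4 cortex arrays (red) and the 4 lung arrays (blue), grouped by role, with a symbol for each sample number. Red points lie to the right of all blue points for 35 genes, and Nefl and Syt1 overlap.

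A look at promoter sequence was possible for 23 of the 37 genes, which had 34 windows in the RefSeq promoter table (GRCm38.p6), each from 250 bases before to 50 after a transcription start. TTCAGCACC, the left part of the REST binding element, occurred on either strand in the window of Syn1 alone among these genes, and in 0.371% of all 32851 windows. The E-box CAGATG, a form bound by proneural factors of the Neurogenin and NeuroD kind, occurred in 9 of the 34 windows (26.5%), which belonged to 6 genes, and in 17.2% of all windows. Windows of neighbouring starts overlap, and the 9 windows held 7 distinct E-box sites. Both motifs were chosen after the expression values were known, and a match is a description of letters, not evidence of binding. Sequences are shown for Syn1, which holds the REST letters, and for Slc17a6 and Stmn3, the genes with the largest expression differences among those with the E-box. Each is the 250 bases before the start, 5′ to 3′ on the strand of the gene, with the matched letters in capitals. The Syn1 window is at chrX:20920919-20921168 (minus strand), that of Slc17a6 at chr7:51624387-51624636 (plus strand) and that of Stmn3 at chr2:181314501-181314750 (minus strand).
Syn1: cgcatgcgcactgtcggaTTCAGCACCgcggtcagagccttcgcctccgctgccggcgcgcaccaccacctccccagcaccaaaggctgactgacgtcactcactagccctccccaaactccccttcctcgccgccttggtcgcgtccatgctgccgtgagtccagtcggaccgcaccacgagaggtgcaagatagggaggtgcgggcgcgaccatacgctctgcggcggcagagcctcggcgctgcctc
Slc17a6: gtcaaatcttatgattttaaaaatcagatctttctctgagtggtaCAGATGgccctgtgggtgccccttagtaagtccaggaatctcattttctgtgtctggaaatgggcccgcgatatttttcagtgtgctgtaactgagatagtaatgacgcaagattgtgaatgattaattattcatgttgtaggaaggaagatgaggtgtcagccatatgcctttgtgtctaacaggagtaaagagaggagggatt
Stmn3: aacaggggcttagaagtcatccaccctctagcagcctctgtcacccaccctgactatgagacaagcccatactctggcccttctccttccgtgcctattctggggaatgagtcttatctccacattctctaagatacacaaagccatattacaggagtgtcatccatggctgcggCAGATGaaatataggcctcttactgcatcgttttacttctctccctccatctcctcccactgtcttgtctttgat
The REST letters of Syn1 began 232 bases before its start, the E-box of Slc17a6 205 bases before its start and that of Stmn3 75 bases before its start.

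The beta-tubulins all rose, but by very different amounts. Tubb3, the class III beta-tubulin used as a marker of neurons, had values of 13.13, 12.40, 12.23 and 13.04 in cortex, against 6.18, 5.34, 5.34 and 5.004 in lung. Every cortex array was far above every lung array, a difference of 7.23 log2 units (SE 0.30, 150-fold, limma adjusted p = 2.46e-06). Tubb2b, a beta-tubulin needed for neuronal migration, had 13.76, 13.78, 14.08 and 14.01 in cortex, against 12.39, 12.66, 12.39 and 12.92 in lung. It was thus high in both tissues, with no overlap and a difference of 1.32 (SE 0.17, 2.50-fold, adjusted p = 0.000819). Tubb2a, its close relative, gave 13.21 ± 0.20 in cortex and 11.56 ± 0.18 in lung (3.15-fold, n = 4 each). Sequences of tubulin genes are very alike, and a probe set can pick up a relative's transcript, which the files do not resolve.

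Motors of the axon showed the largest difference of all 37 genes when each was read by its brightest probe set. Kif5c, a neuronal heavy chain of conventional kinesin, had 12.88, 12.47, 12.54 and 13.10 in cortex, against 5.87, 3.87, 5.12 and 4.27 in lung. The cortex arrays were close together while the lung arrays spread over 2.00 units at low values, and the difference was 7.97 (SE 0.41, 250-fold, limma adjusted p = 7.58e-06). Further Kif5c probe sets differed by 6.29, 1.38 and 0.65, and the mean of all its probe sets by 4.07. Kif21b, a kinesin of dendrites and axons, had 10.69, 10.45, 10.33 and 10.59 in cortex, against 7.21, 5.94, 6.68 and 6.68 in lung. Its arrays did not overlap either, with a difference of 3.89 (SE 0.25, 14.8-fold, adjusted p = 2.48e-05). Kif5a, the other neuronal kinesin heavy chain, stood at 10.57 ± 0.43 in cortex and 4.59 ± 0.20 in lung, 63.2-fold apart. Its further probe sets differed by 0.30 and 0.07, neither called, and the mean of all its probe sets by 2.12.

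The stathmins, which bind tubulin dimers and destabilise microtubules, did not move as a block. Stmn3 had 13.00, 12.67, 12.90 and 13.19 in cortex, against 6.51, 6.94, 6.39 and 7.20 in lung. Both groups were tight and far apart, at 6.18 (SE 0.21, 72.4-fold, limma adjusted p = 9.85e-07), the smallest p of the 37 genes. Stmn2 (SCG10), a growth cone stathmin, had 13.18, 12.19, 12.52 and 12.97 in cortex, against 11.63, 11.999, 11.93 and 11.36 in lung. The lowest cortex value lay just above the highest lung value, and the difference was 0.99 (SE 0.25, 1.98-fold, adjusted p = 0.026). That call ended in 10 of 21 alternative analyses, among them leaving out cortex 72 (0.83), cortex 18 (0.90), lung 72 (0.95) or lung 18 (0.86) and leaving out lung arrays 22 and 18 together (0.94). A second Stmn2 probe set read 11.68 ± 0.49 in cortex and 9.24 ± 0.69 in lung, a difference of 2.44, so the size depended on the probe set, for a cause that was not tested. Stmn4 lay at 10.11 ± 0.75 and 5.51 ± 0.30 (24.3-fold), with cortex 22 lowest of the cortex arrays at 9.06.

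Microtubule-associated proteins rose in all 5 cases, with a median of 5.30 log2 units. Dcx, the doublecortin of migrating neurons, had 12.35, 11.84, 11.90 and 12.34 in cortex, against 7.37, 5.14, 5.64 and 5.53 in lung. Lung 72 was the highest lung array, still far below cortex, and the difference was 6.18 (SE 0.44, 72.7-fold, limma adjusted p = 3.85e-05). Map1b, an early microtubule-binding protein of growing axons, had 11.54, 11.54, 11.71 and 12.08 in cortex, against 8.92, 9.17, 9.61 and 9.21 in lung. It had the smallest difference of the class at 2.49 (SE 0.19, 5.62-fold, adjusted p = 5.66e-05), with every lung array well above the dim range. The dendritic protein Map2 stood at 11.71 ± 0.27 in cortex and 6.10 ± 0.68 in lung, and tau (Mapt), its axonal counterpart, at 10.76 ± 0.55 and 5.46 ± 0.65. Dclk1, a doublecortin relative with a kinase domain, had 11.39 ± 0.48 and 7.58 ± 0.74, a 14.1-fold difference.

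Growth cone genes differed over a wide range. Dpysl5, a collapsin response mediator, had 11.90, 11.30, 11.29 and 11.94 in cortex, against 6.69, 5.14, 5.52 and 6.04 in lung. The groups lay far apart, at 5.76 (SE 0.34, 54.0-fold, limma adjusted p = 1.53e-05). Gap43, the growth-associated protein of extending axons, had 10.34, 9.19, 9.51 and 10.12 in cortex, against 8.70, 8.41, 8.43 and 8.37 in lung. Cortex arrays 72 and 18 were well above lung and 22 and 19 only moderately so, with a difference of 1.32 (SE 0.25, 2.49-fold, adjusted p = 0.00796) that lost its call without lung arrays 22 and 18 (1.23, adjusted p = 0.0600) and without both arrays numbered 18 (1.17). Of the other mediators of this family, Crmp1 lay at 11.56 ± 0.46 and 9.30 ± 0.32 (4.78-fold) and Dpysl3 at 13.19 ± 0.17 and 11.68 ± 0.19 (2.85-fold).

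All 3 intermediate filament genes rose, with the largest difference for alpha-internexin. Ina, which encodes it, had 12.61, 11.62, 12.40 and 12.67 in cortex, against 5.78, 7.95, 5.64 and 5.83 in lung. Lung 22 stood above the other lung arrays, all of which were below cortex, and the difference was 6.02 (SE 0.51, 65.0-fold, limma adjusted p = 9.63e-05). Nefl, the light neurofilament chain, had 9.82, 7.35, 8.75 and 9.44 in cortex, against 7.21, 7.39, 5.90 and 6.46 in lung. Cortex 22 lay among the lung arrays, and the difference of 2.10 (SE 0.55, 4.29-fold, adjusted p = 0.0305) lost its call in 10 of 21 alternative analyses, among them leaving out cortex 72 (1.78), cortex 19 (2.13), cortex 18 (1.90), lung 19 (1.82) or lung 18 (2.01). Nefm, the medium chain, gave 8.23 ± 1.11 and 5.70 ± 0.63 (5.76-fold, adjusted p = 0.0135), with 6.82 on cortex 22 against 7.85 to 9.18 on the other cortex arrays. Without lung arrays 22 and 18 Nefl and Nefm were not called (adjusted p = 0.0877 and 0.101).

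Synaptic vesicle and release genes included the vesicle marker with the largest rise and the only gene of the 37 without a call. Slc17a6, the vesicular glutamate transporter of many projection neurons, had 11.45, 10.87, 10.85 and 11.51 in cortex, against 3.84, 4.44, 4.55 and 5.48 in lung. Lung values were in the dim range on all arrays, and the difference was 6.60 (SE 0.34, 96.8-fold, limma adjusted p = 7.68e-06). Syt1, the calcium sensor of release, had 7.58, 6.30, 7.58 and 8.54 in cortex, against 4.71, 6.82, 6.31 and 8.32 in lung. The groups overlapped widely, with a difference of 0.96 (SE 0.74, 95% confidence interval -0.73 to 2.65, adjusted p = 0.411). Another Syt1 probe set with a lower mean read 9.11, 7.77, 8.45 and 9.03 in cortex, against 5.81, 4.84, 5.80 and 4.92 in lung, without overlap and with a call (difference 3.25, adjusted p = 0.000658 over all probe sets). The choice of probe set therefore decided whether Syt1 was called.

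The vesicle phosphoprotein Syn1 was low on every lung array, at 4.19 ± 0.34, against 9.47 ± 0.77 in cortex, where cortex 22 was lowest at 8.62 (38.9-fold, limma adjusted p = 3.15e-05). Snap25, the plasma membrane SNARE, lay at 10.66 ± 0.36 in cortex and 7.32 ± 0.29 in lung (10.1-fold), and the vesicle protein Syp at 9.99 ± 0.45 and 6.12 ± 0.46 (14.6-fold). The vesicle SNARE Vamp2 differed least among called genes of this class, at 10.31 ± 0.16 in cortex and 8.77 ± 0.78 in lung (2.91-fold, adjusted p = 0.0172). Lung 18 was the low array, at 7.60 against 8.99 to 9.26 on the other lung arrays. The call ended without both arrays numbered 72, 22 or 19 (adjusted p = 0.0584, 0.0626 and 0.0514), and a second Vamp2 probe set, at 9.24 ± 0.32 in cortex and 8.21 ± 0.57 in lung, was not called (adjusted p = 0.0583 over all probe sets).

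RNA-binding proteins of neurons rose together by 4.22 to 4.56 log2 units. Elavl3 (HuC) had 12.52, 12.14, 12.50 and 12.81 in cortex, against 6.51, 8.89, 7.12 and 9.22 in lung. Lung arrays 22 and 18, those with the raised low end, were the higher lung arrays, and the difference was 4.56 (SE 0.58, 23.5-fold, limma adjusted p = 0.000843). Celf4 had 11.38, 10.57, 11.33 and 11.41 in cortex, against 6.68, 7.82, 6.85 and 6.47 in lung. Cortex 22 was lowest of the cortex arrays and lung 22 highest of the lung arrays, with no overlap and a difference of 4.22 (SE 0.32, 18.6-fold, adjusted p = 5.01e-05). Elavl4 (HuD) gave 10.54 ± 0.28 and 6.29 ± 0.45 (19.1-fold).

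Adhesion molecules of axons were led by contactin 2. Cntn2 (TAG-1), found on early axons, had 11.05, 10.74, 10.09 and 10.90 in cortex, against 4.94, 4.62, 4.80 and 4.82 in lung. Lung values were low and nearly equal, and the difference was 5.90 (SE 0.21, 59.7-fold, limma adjusted p = 1.43e-06). Ncam1, the neural cell adhesion molecule, had 13.21, 13.12, 13.32 and 13.64 in cortex, against 11.23, 11.38, 11.60 and 10.95 in lung. It was high in both tissues without overlap, at a difference of 2.03 (SE 0.18, 4.10-fold, adjusted p = 0.000131). L1cam lay at 10.73 ± 0.47 and 7.30 ± 0.83 (10.7-fold), with lung 22 and 18 at 8.11 and 7.90 and lung 72 and 19 at 6.76 and 6.44.

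Among the 4 remaining genes, Gng3, a G-protein gamma subunit of neurons, had 13.14, 12.58, 12.97 and 13.23 in cortex, against 6.94, 5.80, 4.96 and 5.55 in lung. The gap between the groups was wide on every array, at 7.17 (SE 0.38, 144-fold, limma adjusted p = 9.48e-06). Uchl1, a ubiquitin hydrolase abundant in neurons, had 13.41, 12.70, 12.71 and 13.19 in cortex, against 10.27, 10.49, 10.32 and 9.81 in lung. It was high on all arrays, with a difference of 2.78 (SE 0.22, 6.87-fold, adjusted p = 6.34e-05). The reticulon Rtn1 lay at 11.97 ± 0.36 in cortex and 7.44 ± 0.44 in lung (23.1-fold), and Mllt11, known as a fusion partner in leukaemia, at 12.65 ± 0.19 and 9.34 ± 0.38 (9.96-fold).

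Levels of different probe sets cannot be ranked against each other, but each can be set against the dim range of its array. On every lung array 13 of the 37 exceeded the 95th percentile of the receptor genes of that array, 18 did so on some lung arrays and 6 on none (Kif5a, Stmn4, Mapt, Syn1, Slc17a6 and Cntn2). All 37 exceeded it on every cortex array. Tubb2a, Tubb2b, Stmn2 and Dpysl3 were above 11 on each lung array. RMA gives no detection call, and a fold against values at the low end understates the difference. The 11 measured markers of autonomic neurons and neural crest had means of 5.43 to 5.55 on cortex arrays and 5.59 to 5.95 on lung arrays, with the autonomic factor Phox2a at 4.05 ± 0.08 and 4.31 ± 0.18 and the neural crest factor Sox10 at 5.53 ± 0.33 and 5.78 ± 0.20, neither called. Of the same list 2 genes were higher in lung: Gata3, a transcription factor of sympathetic neurons and of several blood and epithelial lineages, at 6.54 ± 0.15 in cortex and 9.06 ± 0.11 in lung (5.77-fold higher in lung, limma adjusted p = 8.70e-06), and Erbb3, the neuregulin receptor of Schwann cell precursors and epithelia, at 4.99 ± 0.16 and 6.71 ± 0.85 (3.28-fold higher in lung, adjusted p = 0.0148). The nicotinic receptor subunit Chrna3 was 3.01-fold higher in cortex (adjusted p = 0.000507). These markers were named after their values were seen. Which cells gave the lung values was not tested.

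Several of the 37 genes have relatives of wider use, and 33 measured genes listed as such served as a comparison list. How broadly each of them is expressed was not tested. Of the relatives 7 rose in cortex (21.2%, beside 10.4% of all genes), 4 fell (12.1%, beside 7.71%) and 22 were not called, with a median difference of -0.04. Leaving out lung arrays 22 and 18 left 5 relatives that rose and 1 that fell. For kinesin-1, the heavy chain Kif5b of most cell types lay at 11.51 ± 0.27 in cortex and 11.64 ± 0.22 in lung (difference -0.13, 95% confidence interval -0.55 to 0.29), beside 7.97 for Kif5c and 5.98 for Kif5a. The broadly used tubulin Tubb5 differed by 0.46 (interval 0.10 to 0.82, limma adjusted p = 0.0829), beside 7.23 for Tubb3 and 1.65 and 1.32 for Tubb2a and Tubb2b. Stmn1 rose by 0.48 (adjusted p = 0.0223), beside 0.99 to 6.18 for the neuronal stathmins, and Dpysl2 by 0.71 (adjusted p = 0.0449), beside 1.51 to 5.76 for its relatives. The calls of Stmn1 and Dpysl2 ended in 12 and 13 of 21 alternative analyses, including without lung arrays 22 and 18.

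Among SNAREs, Snap23 gave -0.82 (interval -1.65 to 0.01) beside 3.34 for Snap25, and Vamp3 -0.43 (interval -0.73 to -0.13, limma adjusted p = 0.0546) beside 1.54 for Vamp2. The Hu protein Elavl1 of most tissues gave -0.16 (interval -1.10 to 0.79) beside 4.56 and 4.26 for Elavl3 and Elavl4, and Rtn4 gave 0.14 (interval -0.16 to 0.44) beside 4.53 for Rtn1. Under some alternatives given in the closing section the signs of Kif5b, Snap23, Vamp3, Elavl1 and Rtn4 turned. Tubb5, Snap23, Vamp3 and Elavl1 were called in some, Elavl1 with its sign turned. Among the relatives the largest rises were those of the RNA-binding protein Celf2 (7.68-fold, adjusted p = 0.000272) and the adhesion molecule Alcam (3.20-fold). The largest falls were those of the endosomal SNARE Vamp8 (3.29-fold higher in lung, adjusted p = 0.0198) and lamin A, Lmna (2.82-fold higher in lung, adjusted p = 0.0139). Without lung arrays 22 and 18 neither was called (adjusted p = 0.0933 for Vamp8 and 0.0533 for Lmna), and the call of Vamp8 also ended without cortex 72 (0.0595) or lung 19 (0.05001). Differences between a gene and its relative were not tested against each other.

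**Figure D2:**
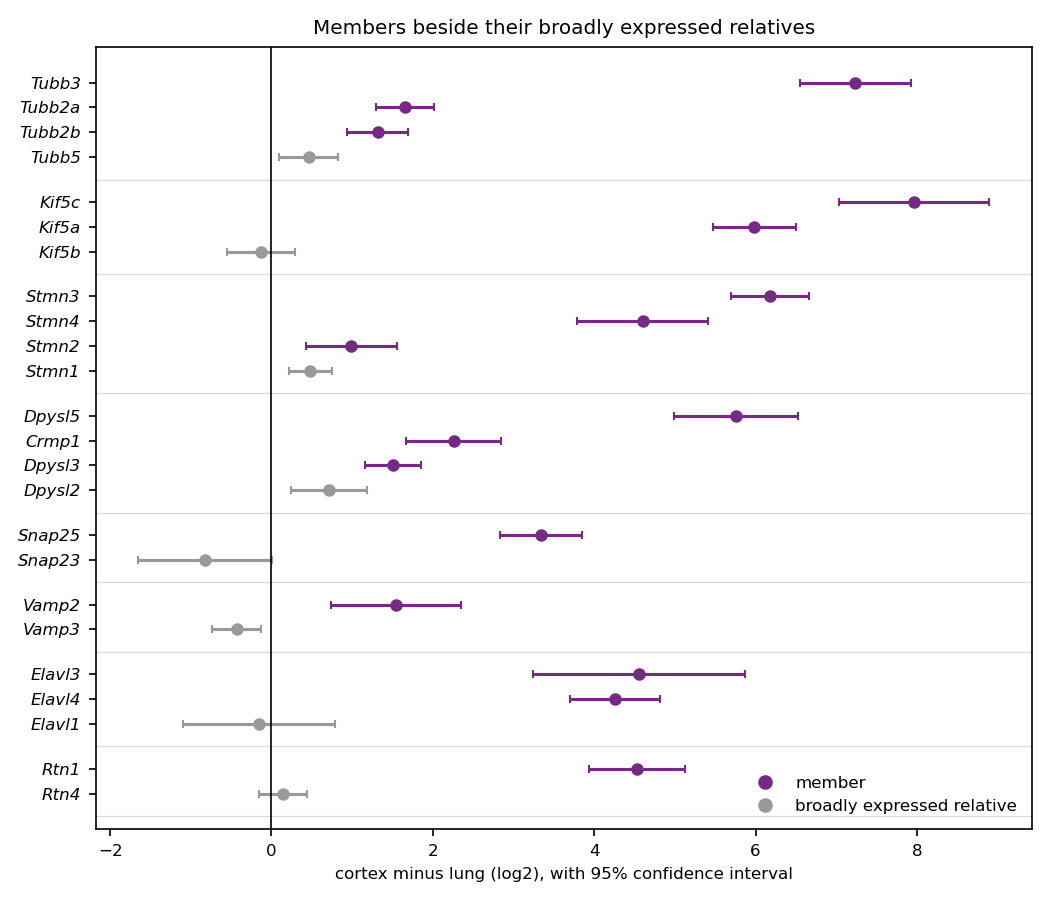
Difference between cortex and lung (log2, horizontal axis) with its 95% confidence interval for 16 of the 37 genes (purple) and the 8 broadly expressed relatives of their families (grey), n = 4 arrays a tissue. Kif5c and Kif5a stand at 7.97 and 5.98 while Kif5b stands at -0.13, and Stmn2 (0.99) lies nearest to its relative Stmn1 (0.48).

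Wider lists of neuronal genes also held many genes that rose. Of 29 further cytoskeletal genes 23 rose (79.3%) and 1 fell, with a median of 2.05, and of 50 further synaptic genes 40 rose (80.0%) and 0 fell, with a median of 2.11 (5 and 10 genes of these lists were not called). Over all genes 10.4% rose and 7.71% fell, with a median of -0.09. Leaving out lung arrays 22 and 18 left 20 further cytoskeletal and 39 further synaptic genes that rose. Largest among the cytoskeletal genes were the axon transport adaptor Fez1 (118-fold, limma adjusted p = 7.87e-06) and the beta-tubulin Tubb4a (40.6-fold). The heavy neurofilament chain Nefh was the 1 that fell, with 5.10 ± 0.53 on cortex arrays and 6.40 ± 0.56 on lung arrays (2.47-fold higher in lung, adjusted p = 0.0300). Its call was lost on leaving out a single array, whether cortex 72 (adjusted p = 0.0687), 22 (0.0568) or 19 (0.0581) or lung 72 (0.0671), 19 (0.0688) or 18 (0.0720). The tissues overlapped for Nefh, with 5.64 on cortex 18 and 5.62 on lung 22. All its cortex values, and those on lung 22 and 18, lay below the receptor 95th percentile of their array, in the dim range. The largest rises among the synaptic genes were those of the GABA-synthesising enzymes Gad1 (69.5-fold, adjusted p = 1.29e-05) and Gad2 (39.3-fold).

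Several of the 37 genes were read by more than 1 probe set. The 95 probe sets gave 80 calls higher in cortex and 0 lower, where 7.28% of all probe sets were called higher and 4.88% lower. Of 58 probe sets beside the chosen ones 44 were called and 14 were not, of which 11 had means under 6.5 in both tissues. All probe sets were called for 16 of the 27 genes with several. The brighter exceptions were probe sets of Vamp2, Cntn2 and Mllt11. That of Vamp2 read 9.24 in cortex and 8.21 in lung (difference 1.02, limma adjusted p = 0.0583), and that of Mllt11 6.65 and 6.82. The Cntn2 probe set read 7.64 and 7.50 (difference 0.15, adjusted p = 0.550), while the other 3 of that gene differed by 5.01 to 6.24. The 9 probe sets of Dclk1, a gene with several known transcript forms, differed by 0.12 to 5.82. Only 2 probe sets had a lower mean in cortex, those of Mllt11 (-0.17) and Kif21b (-0.08), neither called.

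**Figure D3:**
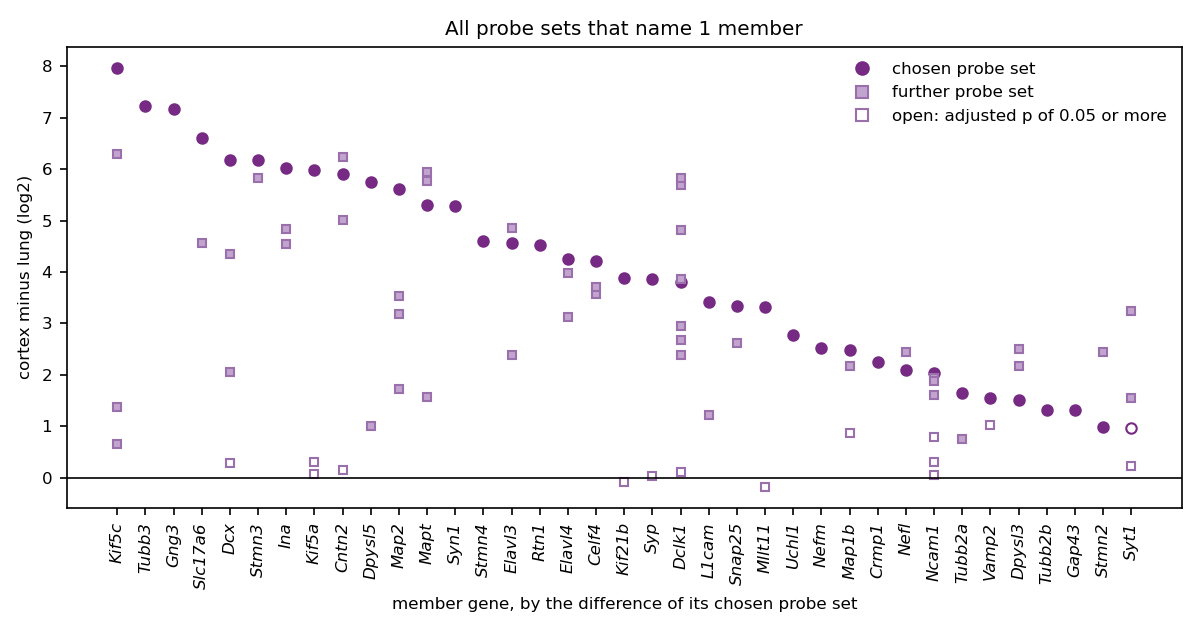
Difference between cortex and lung (log2, vertical axis) for the 95 probe sets of the 37 genes, with the chosen probe set as a circle, further ones as squares and open symbols at an adjusted p of 0.05 or more. Genes run from Kif5c (7.97) to Syt1 (0.96), whose chosen probe set is open while another at 3.25 is filled.

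Over the 4 cortex arrays the genes varied together. Their mean was 11.67 on array 72, 10.93 on 22, 11.23 on 19 and 11.71 on 18. The highest cortex value fell on array 18 for 19 genes, on 72 for 17, on 19 for 1 (Tubb2b) and on 22 for 0, while the lowest fell on 22 for 28 genes, on 19 for 7 and on 72 for 2. Values on both 72 and 18 exceeded those on both 22 and 19 for 32 of 37 genes (86.5%), an order shown by 28.7% of all genes. The exceptions were Tubb2b, Map1b, Dpysl3, Elavl4 and Ncam1. That order is the one of the means of these same genes, so the count is a description and not a test. The pan-endothelial mean ran the other way, with 9.90, 11.23, 11.36 and 9.49 on the same arrays. With 4 arrays no correlation is given, and the part of cell mixture in this order was not tested.

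Other neural lists differed in their course over the cortex arrays. Radial glia markers had means of 11.09, 10.95, 10.39 and 10.98 and cortical neuron transcription factors 10.72, 10.72, 10.18 and 10.69, both lowest on array 19, whereas the mean of the 37 genes was lowest on array 22. Interneuron markers had means of 9.26, 8.75, 8.96 and 9.61 and the further synaptic genes 8.93, 8.24, 8.39 and 8.84, both lowest on array 22 with 72 and 18 above 22 and 19, the order of the 37 genes. The further cytoskeletal genes had 10.43, 9.91, 9.86 and 10.30, also with 72 and 18 on top. Microglia and macrophage markers had 8.66, 8.28, 9.02 and 5.49, lowest on array 18. Cortex ranges exceeded 1.5 log2 units for 5 genes (Stmn4, Nefl, Nefm, Syt1 and Syn1), and array 22 was the lowest cortex array for each. The smallest range was that of Tubb2b, 0.32. In lung the means of the 37 genes were 7.43, 7.39, 7.27 and 7.41. The highest value fell on lung 72 for 14 genes, on 22 for 8, on 19 for 6 and on 18 for 9. Genes following an order of the lung arrays were not counted. Near-equal means can hide opposite shifts, as Elavl3 was higher on lung 22 and 18 and Kif5c on lung 72 and 19.

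**Figure D4:**
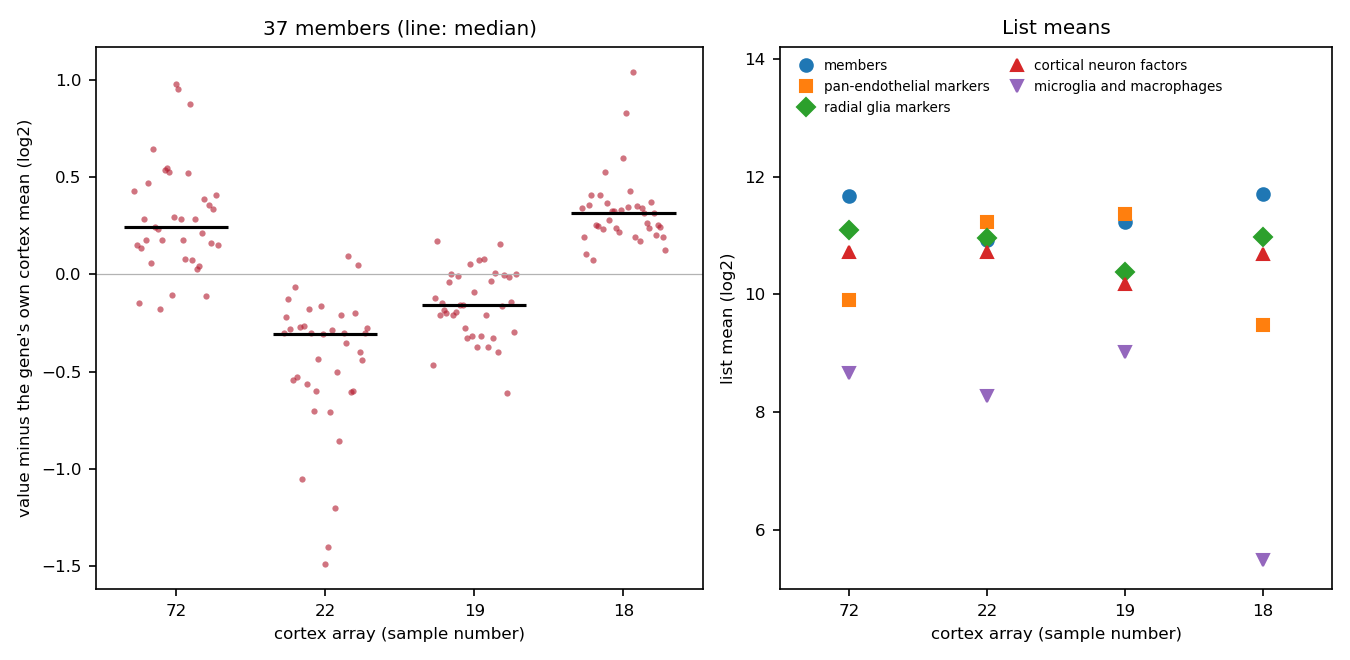
Left, each gene's value minus its own mean over the cortex arrays (log2, vertical axis) by array, with the median as a line at 0.24, -0.31, -0.16 and 0.32. Right, mean of the 37 genes and of marker lists (log2) on the same arrays, where the pan-endothelial mean is lowest on arrays 72 (9.90) and 18 (9.49).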

How the data were processed

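Values deposited by the authors are log2 intensities of each probe set on 8 Affymetrix Mouse Genome 430 2.0 arrays. The submitters' processing notes name RMA and the affy package, with versions not given in the sources used here. RNA (15 to 30 ng) was linearly amplified, per the labels' protocols. All 8 columns were mapped to samples by their identifiers. The number of arrays limits the precision. Upper quartiles differed (8.68 to 9.05), so the arrays do not share 1 distribution.

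The 64 control probe sets were left out. Gene names came from the platform annotation, and 34945 of 45037 probe sets named 1 gene, 932 several and 9160 none. The tissues were tested against each other by lmFit and eBayes of limma 3.58.1 (R 4.3.3), with tissue as the factor, two-sided, with Benjamini-Hochberg adjustment over 18193 genes, or over 45037 probe sets. In simulated data (18193 genes, 200 of them changed, with independent normal noise) 47 of 100 genes changed by 1 log2 unit were called. Of 100 changed by 2 units 83 were called, with 6 false among 136 calls in all. The real comparison called 18.1% of genes, and the simulation held no effects shared within an array. Its rates therefore need not hold for the real arrays.

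The genes and lists were chosen with earlier results of these data known. Array values were printed for the genes with the largest and the smallest difference in each role, and from each further list at most 4 genes were named (the 2 largest called in each direction) besides 8 set relatives and a few markers. Further marker lists had these counts higher and lower in cortex: interneuron 6 and 1 of 8, autonomic and crest 1 and 2 of 11, microglia and macrophage 6 and 0 of 12, mural 1 and 3 of 10, erythroid 2 and 0 of 8, lung epithelium 1 and 2 of 10, and choroid plexus 2 and 0 of 7. Over all genes 10.4% were called higher and 7.71% lower. The shares called higher for the autonomic and crest, mural and lung epithelium lists (9.1%, 10.0% and 10.0%) lay near that of all genes. Members of lists that the annotation does not name alone were not analysed here.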

Additional observations from a re-analysis of the deposited data

Results flagged for a closer look

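In 3 of 74 groups of 4 arrays (37 genes in each tissue) a single array lay far from the other 3, measured by its gap against the whole range. Chance gives about 1 in 20 such groups, or 3.7 here. Ina was 7.95 on lung 22, against 5.64 to 5.83 on the other lung arrays. Celf4 was 10.57 on cortex 22, against 11.33 to 11.41 on the other cortex arrays. Vamp2 was 7.60 on lung 18, against 8.99 to 9.26 on the other lung arrays. The causes were not tested.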

How the results depend on the processing

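Alternatives were 21 per gene, of which quantile normalization and leaving out lung arrays 22 and 18 together were chosen after the data were seen. Of the 37 genes 31 kept their call and direction in all of them, 5 (Stmn2, Gap43, Nefl, Nefm and Vamp2) lost a call in some, Syt1 gained one in 2, and 0 turned. The number that rose was 34 to 36 without a single array, and 0 fell. It was 33 without both arrays numbered 72 and 32 without both numbered 19 or 18. Further cytoskeletal genes that rose numbered 21 to 23 without a single array and 18 without both arrays numbered 22. Further synaptic genes that rose numbered 36 to 40 without a single array and 34 without both arrays numbered 19. Further cytoskeletal genes that fell numbered 0 to 1 without a single array, and 0 without both arrays numbered 72, 19 or 18, after pan-endothelial scaling and among genes with a mean of at least 6. Further synaptic genes that fell numbered 0 to 1 without a single array and 1 with arrays centred on the median. Relatives that rose numbered 5 to 7 without a single array, 4 without both arrays numbered 19 and 4 with centring on the median. Relatives that fell numbered 3 to 7 without a single array (7 without cortex 19), 2 without both arrays numbered 72, 1 without both arrays numbered 22, 8 with centring, 0 with pan-endothelial scaling and 1 without lung arrays 22 and 18. Pan-endothelial scaling moved the median of all genes to 1.01, centring moved it to -0.30. The sign turned after pan-endothelial scaling for Kif5b (0.96), Snap23 (0.27), Vamp3 (0.66) and Elavl1 (0.94), and with centring for Rtn4 (-0.0643). Elavl1 ran from -0.563 to 0.0848 without a single array, turning without cortex 72, lung 72 or lung 19, and also turned without both arrays numbered 72 (0.26) or 19 (0.0364), and as a mean of all its probe sets (0.73, adjusted p = 0.0347). Among the other relatives not called in the main analysis, Vamp3 was called in 6 alternatives. Tubb5 was called under pan-endothelial scaling (1.55, limma adjusted p = 0.0388) and trended moderation (adjusted p = 0.0316), and Snap23 with centring (-1.03, adjusted p = 0.0432). The causes were not tested.

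Same-numbered arrays are not known to share a litter. The correlation of their deviations from the tissue means ran from -0.16 to 0.33, and 2 of 4 cortex arrays correlated best with the lung array of their number. With the sample number as a replicate block 34 of the 37 genes rose, 22 and 38 of the further cytoskeletal and synaptic genes rose, 5 relatives rose and 4 fell, and 77 probe sets rose.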
